A study of Mus musculus with 12 samples.

Results

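The effect of voluntary wheel running on mRNA levels was measured in the extensor digitorum longus (EDL) of male mice labelled Nrip1KO, called strNrip1-/- in the study. The EDL lifts the toes and is made almost wholly of fast-twitch fibers. The comparison held 6 of the 12 libraries of the series, 3 trained and 3 sedentary, chosen by their labels alone. The remaining 6 libraries came from trained and sedentary mice labelled Ctrl, here called WT, and they served to show where the training effect differed between genotypes. strNrip1-/- mice carried floxed Nrip1 alleles and a Cre recombinase driven by the muscle creatine kinase promoter, which acts in heart and skeletal muscle, and loxP sites flanked the exon that holds the whole coding sequence. Littermates with the same floxed alleles but without Cre were the WT controls, so both genotypes shared the floxed background. Trained mice had access to a running wheel for 8 weeks from 8 weeks of age, and mice that ran too little were removed by the authors, whereas sedentary mice had no wheel. Wheels were taken away more than a day before any testing endpoint, by the study's methods, and mice of the RNA cohort had no other testing. The sources used here do not say whether each library came from a single animal, so the p-values measure the spread between these libraries.

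Nrip1 encodes RIP140, a corepressor that binds ligand-activated nuclear receptors and recruits enzymes that silence their target genes. Its known targets in muscle include genes of fatty acid uptake, fatty acid oxidation and oxidative phosphorylation, which receptors of the estrogen-related and peroxisome proliferator-activated families switch on. Endurance training is known to raise many of the same genes, to shift fast fibers from the IIb toward the IIa myosin isoform, and to expand the capillary bed. Several transcripts, such as those of the pyruvate dehydrogenase kinase Pdk4 and of immediate early genes, also respond within hours to a bout of running, to fasting or to stress hormones. The question addressed here was which transcripts differ with training in muscle of mice bred to lack RIP140.

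The FPKM of the 6 libraries labelled Nrip1KO corresponded to a scale of 22.5 to 28.6 M fragments each, as read from the spacing of low values. Expression was deposited as FPKM, fragments per kilobase of transcript scaled by depth. The table held 17752 genes, and the 12744 that averaged 0.5 FPKM or more were tested. Nrip1 (ENSMUSG00000048490, GRCm38 chromosome 16, 76287400 to 76373827, minus strand) went against the genotype labels: its FPKM was 15.5, 16.3 and 14.9 in the sedentary and 20.7, 14.9 and 16.6 in the trained libraries labelled Nrip1KO, against 2.53 to 4.76 in the 6 libraries labelled Ctrl. A total over the gene cannot show whether the floxed exon was present, so this is no check of the deletion. If the genotype labels were exchanged, the training comparison described here would be one in WT muscle. Every difference between genotypes given here would then have the opposite sign, and these values cannot tell whether the labels were exchanged. The names strNrip1-/- and WT stand for the labels Nrip1KO and Ctrl throughout. Nrip1 did not differ with training beyond its spread (log2 fold change 0.14 ± 0.20 SE, adjusted p 0.819, limma). Defining muscle fiber markers were the most abundant of the marker lists. Their sum over 7 genes, among them creatine kinase Ckm and skeletal actin Acta1, was 84450 to 111859 FPKM in the sedentary and 95945 to 100571 FPKM in the trained libraries.

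Transcripts of other organs were present in the libraries, and these were chosen for summing after their values were seen. The sum of 28 liver-abundant transcripts, such as albumin (Alb) and the fibrinogen chains, was 798, 934 and 1353 FPKM in the sedentary libraries and 299, 535 and 319.9 FPKM in the trained ones. Every trained library was below every sedentary library, and all 28 had lower mean values with training, 27 of them without overlap, beside 7.5% of all tested genes. The lowest of the 28 markers averaged 2.99 FPKM, so none was near 0. In libraries labelled Ctrl the sum was 794, 720.4 and 1274 FPKM sedentary and 833, 209 and 296 FPKM trained. The sum of 10 adrenal transcripts, among them the steroidogenic genes Star and Cyp11a1, was 35.6, 47.5 and 235 FPKM in the sedentary and 15.9, 22.1 and 51.3 FPKM in the trained libraries. Sedentary replicate 3 stood apart with the highest value of all 12 libraries. In bulk tissue fewer cells of a type and less RNA per cell cannot be told apart. The part of these transcripts in the results below was not tested. Values given without sedentary replicate 3 leave out only the library with the highest adrenal sum. The liver sums of the remaining sedentary libraries, 798 and 934 FPKM, were still above those of the trained libraries with the same label. Those values therefore cannot show the part of liver transcripts.

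**Figure D1:**
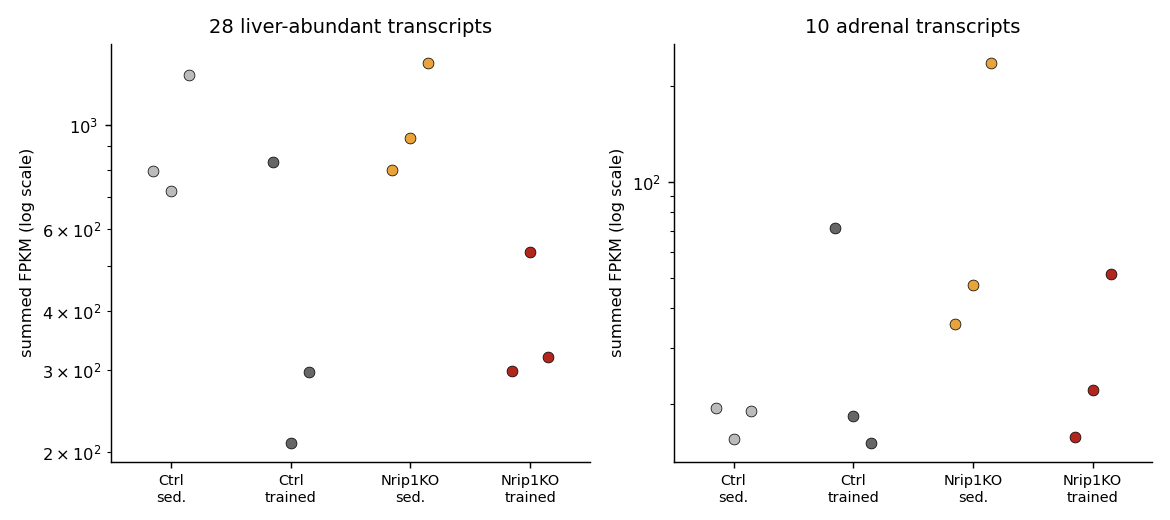
Summed FPKM (log scale) of 28 liver-abundant and 10 adrenal transcripts in each of the 12 libraries, with 1 point per library. The trained libraries labelled Nrip1KO sit below the sedentary ones for the liver sum, and sedentary replicate 3 has the highest adrenal sum at 235 FPKM.

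No gene passed the test for training in libraries labelled Nrip1KO. Calls required both an adjusted p under 0.05 and a change of more than 1.2-fold, and limma called 0 of 12744 genes (percent called 0), with 1544 genes at an unadjusted p under 0.05 and a smallest adjusted p of 0.0625. The same contrast in libraries labelled Ctrl also gave 0 calls (percent called 0), with 1061 genes at an unadjusted p under 0.05 by limma. The test of the difference between the 2 training effects gave 0 calls as well (percent called 0), with 989 genes at an unadjusted p under 0.05 by limma. Under limma with library weights, which was added after seeing the data, 13 genes were called in the strNrip1-/- contrast. With only genes averaging at least 5 FPKM, 5 were called (Smtnl1, Clptm1, Rhob, Rida and Hnrnpa0). Leaving out sedentary replicate 3 gave 4 calls, leaving out trained WT replicate 1 gave 3, and no other single library gave any. The genes below are therefore described by their values, and the absence of a call does not show that they did not differ.

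Non-overlap was used to describe the direction of single genes: the 3 trained libraries lay all above, or all below, the 3 sedentary ones. By that measure 1198 tested genes (9.4%) were higher and 956 (7.5%) lower with training in libraries labelled Nrip1KO. In libraries labelled Ctrl the shares were 7.76% higher and 6.5% lower. Of the 1198 genes that were higher, 140 (11.7%) were also higher without overlap in WT, and those 140 made up 14.2% of the WT genes that were higher. Of the 956 that were lower, 106 (11.1%) were also lower in WT. The median log2 fold change over all tested genes was 0.01.

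The smallest adjusted p values belonged to 9 genes under 0.1, which are named here after their values were seen. Rida (GRCm38 chromosome 15, 34484021 to 34495255, minus strand) encodes a deaminase that clears reactive imines and is abundant in liver. Its FPKM was 15.9, 18.5 and 17.6 in the sedentary and 10.1, 9.98 and 9.60 in the trained libraries, a log2 fold change of -0.77 ± 0.10 (SE, n = 3 per group, limma adjusted p 0.0625). All 3 trained values were below the sedentary ones, as was the liver sum, and the same was seen for Rida in WT, with a smaller difference of -0.28 ± 0.10. Rhob (chromosome 12, 8497661 to 8500009, minus strand), a small GTPase that is induced early by growth factors and stress, was 22.1, 20.9 and 25.2 FPKM in the sedentary and 36.5, 32.9 and 34.7 FPKM in the trained libraries (log2 fold change 0.60 ± 0.08, limma adjusted p 0.0625). The WT contrast gave 0.59 ± 0.08 for Rhob, and the groups did not overlap there either. Clptm1 (chromosome 7, 19631571 to 19665033, minus strand), a membrane protein of the endoplasmic reticulum, was 17.9, 16.3 and 16.4 FPKM sedentary and 24.8, 25.0 and 23.3 FPKM trained, and the groups did not overlap (log2 fold change 0.52 ± 0.07, limma adjusted p 0.0625).

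Smtnl1 (chromosome 2, 84811176 to 84822652, minus strand) encodes smoothelin-like 1, a muscle protein that is a known brake on myosin phosphatase and is linked to the adaptation to exercise. Its FPKM was 31.8, 26.0 and 27.0 in the sedentary and 46.8, 59.0 and 56.8 in the trained libraries, a 1.9-fold higher level with a log2 fold change of 0.92 ± 0.13 (limma adjusted p 0.0625). In WT the log2 fold change of Smtnl1 was 0.37 ± 0.13, also without overlap. Fndc5 (chromosome 4, 129136999 to 129144593, plus strand), the precursor of the myokine irisin, was 33.5, 32.1 and 33.6 FPKM sedentary and 45.8, 46.1 and 48.5 FPKM trained (log2 fold change 0.49 ± 0.08, limma adjusted p 0.0877). The spread within each of these groups was small, and the same direction without overlap was seen in WT, where Fndc5 was 16.7, 19.1 and 18.5 FPKM sedentary and 22.8, 23.7 and 20.1 FPKM trained. Myo18b (chromosome 5, 112688876 to 112896362, minus strand), an unconventional myosin needed to build sarcomeres, was 50.7, 46.6 and 50.3 FPKM sedentary and 64.6, 70.5 and 64.6 FPKM trained (log2 fold change 0.43 ± 0.07, limma adjusted p 0.0877).

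Hnrnpa0 (chromosome 13, 58125879 to 58128556, minus strand), an RNA-binding protein, was 20.5, 19.5 and 18 FPKM in the sedentary and 26.5, 30.1 and 27.0 FPKM in the trained libraries (log2 fold change 0.52 ± 0.08, limma adjusted p 0.0737). Its WT log2 fold change was -0.07 ± 0.08. Tut4 (chromosome 4, 108459426 to 108559421, plus strand) encodes a uridylyltransferase that tags microRNA precursors and mRNA for decay. Its FPKM was 2.59, 3.41 and 3.03 sedentary and 5.93, 8.49 and 7.37 trained, a 2.2-fold higher level (log2 fold change 1.14 ± 0.18, limma adjusted p 0.0877). Trained libraries labelled Nrip1KO reached the range of sedentary WT, where Tut4 was 7.36, 5.72 and 9.07 FPKM. Gmfg (chromosome 7, 28437447 to 28448233, plus strand), an actin regulator of blood cells, was 2.63, 2.84 and 2.11 FPKM sedentary and 1.15, 0.852 and 1.09 FPKM trained (log2 fold change -0.98 ± 0.16, limma adjusted p 0.0877). Gmfg is a low gene, and its log2 fold change understates the ratio.

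**Figure D2:**
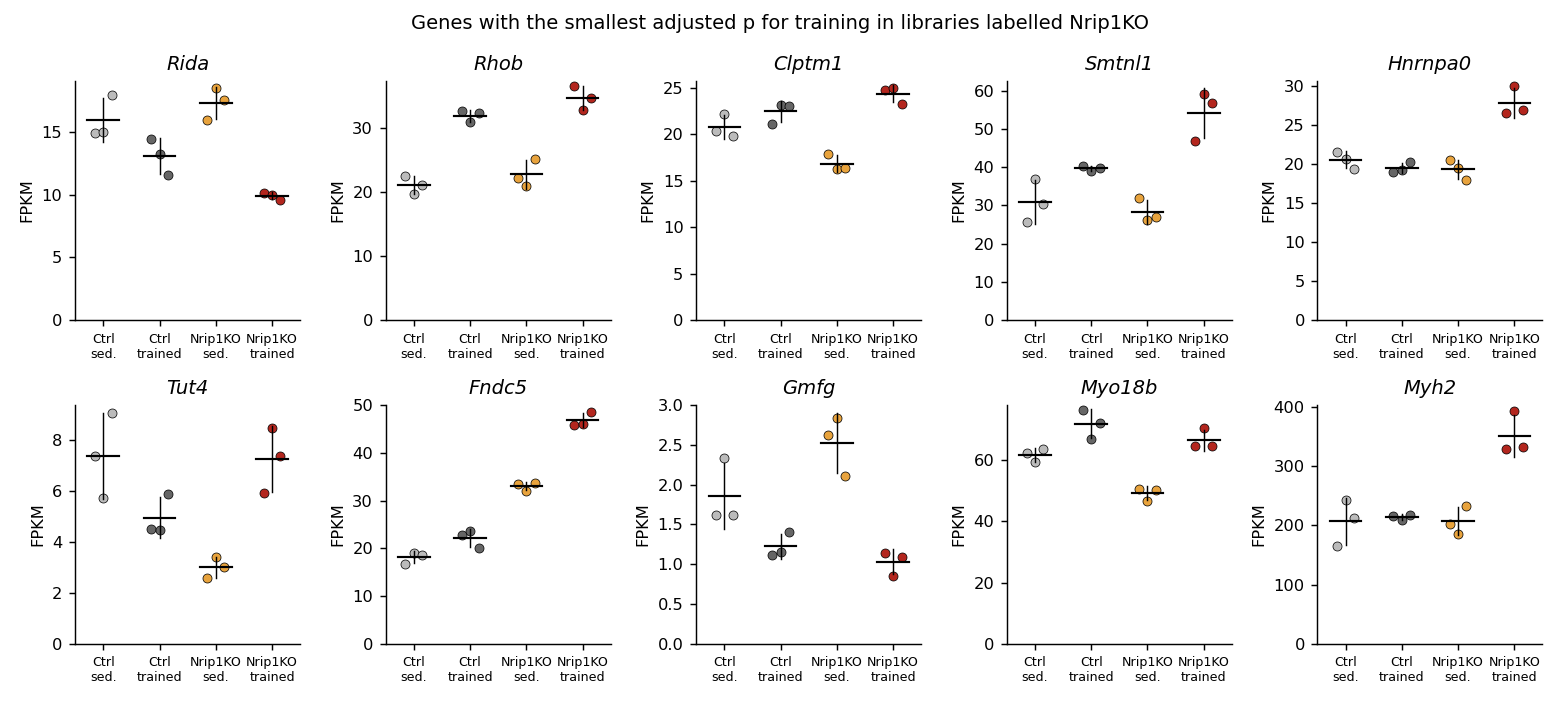
FPKM of the 9 genes with an adjusted p under 0.1 for training in libraries labelled Nrip1KO, and of Myh2, in the 4 groups; points are libraries, the horizontal line is the mean and the vertical line 1 SD. In all 10 panels the 3 trained strNrip1-/- points lie on 1 side of the 3 sedentary ones, and for Tut4 and Hnrnpa0 the trained WT mean is below the sedentary one.

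Myosin isoforms were examined next, because fiber type is a classic readout of training. Myh2 (chromosome 11, 67171027 to 67197517, plus strand), the IIa myosin heavy chain of fast oxidative fibers, was 203, 186 and 233 FPKM in the sedentary and 329.8, 393 and 332 FPKM in the trained libraries. The groups did not overlap, and the level was 1.7-fold higher with training (log2 fold change 0.76 ± 0.13, limma adjusted p 0.113). In WT, Myh2 was 165, 243 and 212 FPKM sedentary and 217, 209 and 217 FPKM trained, a log2 fold change of 0.07 ± 0.13. The difference between the effects was 0.69 ± 0.19 on the log2 scale and did not pass the test (limma adjusted p 0.536). Myh1, the IIx isoform, was 1529, 1178 and 1478 FPKM sedentary and 1906, 2249.7 and 2699.8 FPKM trained (log2 fold change 0.71 ± 0.18, limma adjusted p 0.211), against 0.54 ± 0.18 in WT. Myh4, the IIb isoform and the most abundant of these, overlapped between groups at 7236, 6582 and 8385 FPKM sedentary and 8384, 8893 and 7045 FPKM trained (log2 fold change 0.13 ± 0.13). Myh7, the slow isoform, was 19.4, 1.72 and 1.07 FPKM sedentary and 1.46, 5.74 and 2.38 FPKM trained, with sedentary replicate 1 far above the others (log2 fold change -0.33 ± 1.37, and 0.81 without that library). These myosin genes share long stretches of sequence, so part of their values depends on how the authors' counting divided shared reads. Of 16 fast-fiber genes tested, 1 (Myh1) was higher and 0 lower without overlap, beside 9.4% and 7.5% of all genes, with a median log2 fold change of 0.04. Myh2 was in neither the fast-fiber nor the slow-fiber list. Of 12 slow-fiber genes, 1 (the Z-disc protein Myoz2) was higher and 0 lower, with a median of 0.12 that was 0.48 without sedentary replicate 1, -0.19 without sedentary replicate 3 and negative also without sedentary replicate 2 or trained replicate 2. The slow-fiber gene of smallest p, myosin-binding protein Mybpc1, was 918, 775 and 837 FPKM sedentary and 956, 959 and 906 FPKM trained (limma adjusted p 0.498). Alpha-actinin Actn3 (log2 fold change 0.08 ± 0.08), Ckm (0.13 ± 0.12) and the oxygen store myoglobin Mb (0.09 ± 0.19) overlapped between groups.

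Most genes of fat handling were higher in the trained libraries labelled Nrip1KO, by modest amounts. Of 23 genes of fatty acid oxidation, 14 were higher and 0 lower without overlap, with a median log2 fold change of 0.21, beside 9.4% of all genes higher and a median of 0.01. Of 25 genes of lipid uptake and storage, 14 were higher and 0 lower, with a median of 0.29. No member of either list was called. Members of a list are measured in the same 6 libraries and are not independent of each other. Without sedentary replicate 3 the medians were 0.17 and 0.38. In WT, 6 and 7 members were higher and 0 and 2 lower, beside 7.76% and 6.5% of all genes, with medians of 0.11 and 0.19. No member passed the test of the difference between genotypes.

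Bases upstream of the start sites are shown for 4 genes of these lists that were higher in every trained library and were picked because the window holds the motif AGGTCA, which nuclear receptors, the partners of RIP140, bind. The windows hold the 250 bases before the RefSeq start on GRCm38.p6, 5′ to 3′ on the gene's strand, with AGGTCA or its reverse complement TGACCT in capitals. They lie at chr12:16610967-16611216 (minus strand), chr17:56117549-56117798 (minus strand), chr19:55099478-55099727 (minus strand) and chr11:70015429-70015678 (minus strand).
Lpin1: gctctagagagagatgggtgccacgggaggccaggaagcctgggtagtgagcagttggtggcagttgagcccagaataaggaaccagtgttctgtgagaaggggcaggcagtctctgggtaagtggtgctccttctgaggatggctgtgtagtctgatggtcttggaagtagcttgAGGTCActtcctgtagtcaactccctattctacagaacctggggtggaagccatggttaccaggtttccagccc
Plin5: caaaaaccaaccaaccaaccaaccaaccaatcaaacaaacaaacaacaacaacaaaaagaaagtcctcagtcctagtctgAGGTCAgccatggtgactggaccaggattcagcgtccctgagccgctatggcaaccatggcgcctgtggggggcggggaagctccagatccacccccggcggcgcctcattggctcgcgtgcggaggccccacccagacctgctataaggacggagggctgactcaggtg
Gpam: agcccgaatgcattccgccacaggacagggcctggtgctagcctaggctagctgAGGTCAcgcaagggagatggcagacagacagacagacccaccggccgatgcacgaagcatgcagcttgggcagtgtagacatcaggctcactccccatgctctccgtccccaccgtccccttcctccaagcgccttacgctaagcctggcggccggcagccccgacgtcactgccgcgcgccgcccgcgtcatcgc
Acadvl: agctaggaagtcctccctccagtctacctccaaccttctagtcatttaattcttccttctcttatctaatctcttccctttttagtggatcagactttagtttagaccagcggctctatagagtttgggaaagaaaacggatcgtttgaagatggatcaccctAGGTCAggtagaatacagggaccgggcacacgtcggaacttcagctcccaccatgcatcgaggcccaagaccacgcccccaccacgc
The motif begins 74 bases before the start of Lpin1, 170 before Plin5, 196 before Gpam and 87 before Acadvl. On either strand it was present in 4 of 20 windows of the fatty acid oxidation genes and 6 of 26 windows of the uptake and storage genes, against 14.0% of all 32851 windows and 11.2% of those of tested genes. Of the 27 windows of list members higher in every trained library, 6 held it, and 4 are shown. The longer motif TCAAGGTCA was in 0 windows of either list, against 0.387% of all windows. Of the 23 and 25 genes of the lists, 19 and 19 had a window, some of them more than 1. A match of 6 letters describes the sequence and is not evidence of binding.

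Of the oxidation genes without overlap, Mlycd and Cpt1b, which both bear on the entry of fatty acids into mitochondria, had the highest log2 fold changes. Mlycd, malonyl-CoA decarboxylase, which removes the inhibitor of fatty acid entry, was 45.0, 45.6 and 48.3 FPKM in the sedentary and 63.7, 91.3 and 63.9 FPKM in the trained libraries (log2 fold change 0.63 ± 0.13, limma adjusted p 0.2). In WT its log2 fold change was -0.03 ± 0.13. Cpt1b, the muscle carnitine palmitoyltransferase that controls entry, was 142, 126 and 141 FPKM sedentary and 163, 180.2 and 162 FPKM trained, without overlap. Further along the pathway, the acyl-CoA dehydrogenases Acads (0.25 ± 0.07) and Acadvl (0.22 ± 0.11), the carnitine carrier Slc25a20 (0.25 ± 0.10) and the thiolase Acaa2 (0.26 ± 0.10) were each higher in all 3 trained libraries by these log2 fold changes. Acadm, the medium-chain dehydrogenase, overlapped between groups at 275, 290.4 and 241 FPKM sedentary and 256, 267 and 281 FPKM trained. Decr1 (-0.02 ± 0.10) and Cpt1a, the liver isoform of the entry enzyme (-0.02 ± 0.20), also overlapped. The members named here beside Mlycd were chosen after their values were seen.

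Among genes of uptake, storage and release, the highest log2 fold changes were those of triglyceride synthesis and of lipid droplet coats. Lpl, the lipase that frees fatty acids from circulating lipoproteins, was 126, 129.9 and 165 FPKM in the sedentary and 195, 238 and 239 FPKM in the trained libraries (log2 fold change 0.67 ± 0.15). Slc27a1, a fatty acid transport protein, was 85.8, 71.1 and 80.9 FPKM sedentary and 94.2, 146 and 125 FPKM trained. Both were higher in every trained library and likewise without overlap in WT. Triglyceride synthesis genes did not overlap either. Dgat2, the last enzyme of triglyceride assembly, was 27.0, 28.7 and 28.9 FPKM sedentary and 35.1, 64.4 and 51.9 FPKM trained, and Lpin1, the phosphatase that acts just before it, was 11.5, 10.1 and 12.9 FPKM sedentary and 14.3, 24.2 and 24.6 FPKM trained (log2 fold changes 0.79 ± 0.21 and 0.81 ± 0.22). Pnpla2, the lipase that opens stored triglyceride, was 163, 189 and 169 FPKM sedentary and 209, 278 and 228 FPKM trained. The lipid droplet coat Plin5 was 16.5, 22.3 and 19.7 FPKM sedentary and 23.6, 46.8 and 30.8 FPKM trained. Acacb, the acetyl-CoA carboxylase that makes malonyl-CoA, had the smallest p of the list at 43.5, 36.4 and 47.6 FPKM sedentary and 52.2, 75.8 and 64.1 FPKM trained (log2 fold change 0.58 ± 0.13, limma adjusted p 0.2). The genes of new fatty acid synthesis did not share this pattern. Fasn was 5.46, 5.43 and 12.5 FPKM sedentary and 4.72, 5.95 and 11.4 FPKM trained, and Scd1 was 18.5, 9.71 and 63.1 FPKM sedentary and 11.4, 11.9 and 25.4 FPKM trained, both with replicate 3 of the sedentary group at the top of their range. Adipocyte markers also overlapped, their sum over 6 genes being 43.1 to 116 FPKM sedentary and 43.8 to 113 FPKM trained. The adipocyte marker of smallest p, Cidec, gave -0.40 ± 0.43. Apart from Acacb and Cidec, the genes of this paragraph were picked for their values.

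**Figure D3:**
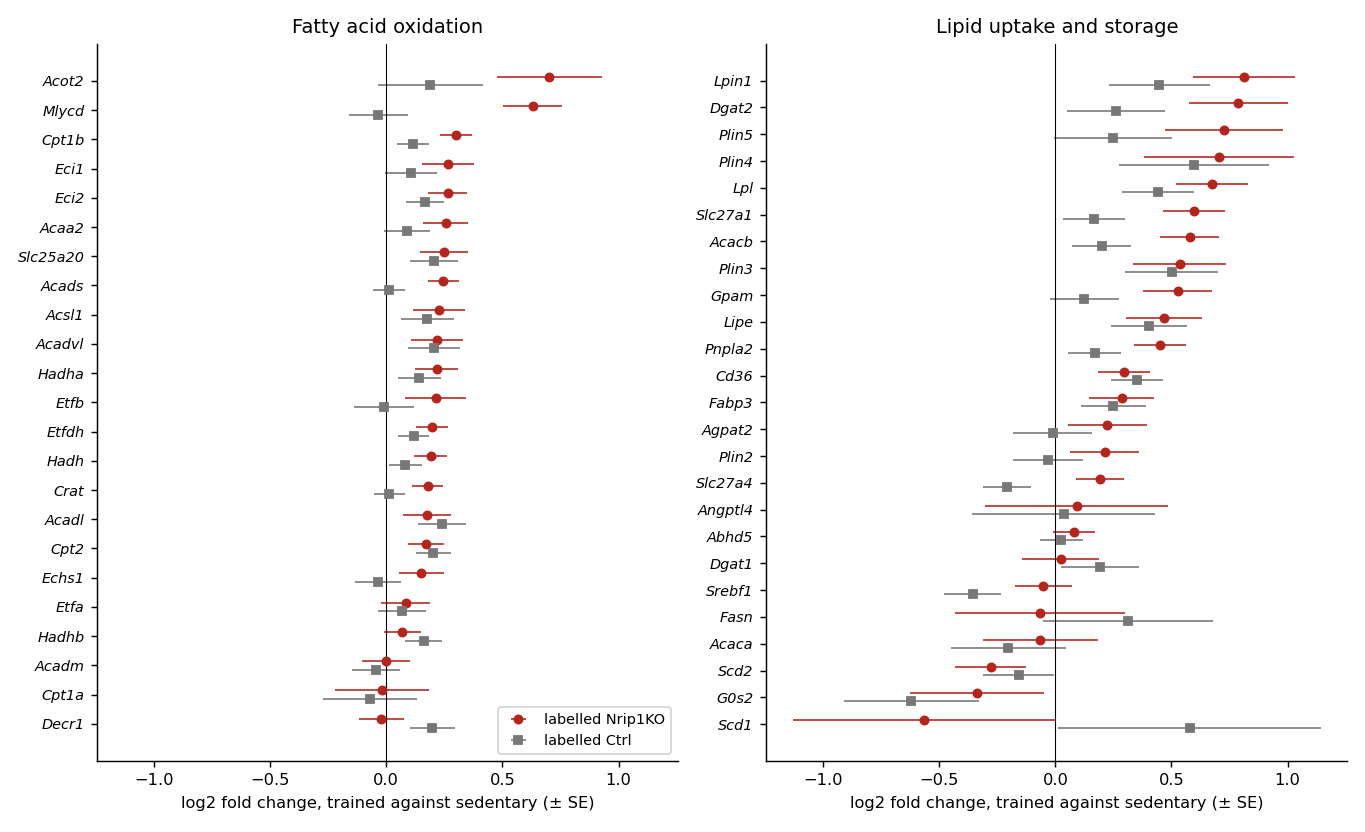
Log2 fold change of trained against sedentary libraries (± SE, limma) for the 23 tested genes of fatty acid oxidation and the 25 of lipid uptake and storage, in libraries labelled Nrip1KO and labelled Ctrl. Most strNrip1-/- values lie above 0, with list medians of 0.21 and 0.29, and their error bars overlap those of WT for many genes.

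Transcripts of the mitochondrial genome were lower in the trained libraries labelled Nrip1KO. All 13 of its protein-coding genes had lower mean log2 values with training, 12 of them without overlap, and the median log2 fold change was -0.34, beside 7.5% of all genes lower. In WT the median was 0.08, with 1 gene higher and 0 lower without overlap. These transcripts made up 52.8%, 51.2% and 52.8% of summed FPKM in the sedentary libraries labelled Nrip1KO and 45.7%, 43.7% and 45.5% in the trained ones. The share was 52.3% ± 0.918 (SD, n = 3) against 45.0% ± 1.12, a difference of -7.31 percentage points (exact two-sided permutation p = 0.1, the smallest that 3 against 3 allows). In libraries labelled Ctrl it was 42.2%, 44.6% and 44.5% sedentary and 47.3%, 46.8% and 43.8% trained, a difference of 2.22 points (exact permutation p = 0.3). The 3 sedentary strNrip1-/- libraries thus lay above all other 9 libraries. The 2 differences were 9.53 points apart (exact two-sided permutation of the training labels within each genotype, p = 0.015, smallest possible 0.005), a comparison made with these values already known. That permutation assumes no training effect in either genotype, so its p is not a test of equal effects.

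Among the genes, mt-Nd2, a complex I subunit, had the smallest p at 23077, 26003 and 19880 FPKM in the sedentary and 16198, 15004 and 16159 FPKM in the trained libraries (log2 fold change -0.53 ± 0.14, limma adjusted p 0.231). mt-Nd3, another complex I subunit, differed most at 12081, 20636 and 9645 FPKM sedentary and 8639.6, 5932 and 6624 FPKM trained (log2 fold change -0.94 ± 0.26), with sedentary replicate 2 far above the rest. mt-Cytb, the complex III subunit, was 32932, 35182 and 28818 FPKM sedentary and 27376, 26453 and 27869 FPKM trained. mt-Co1, a complex IV subunit, was the only one of the 13 whose groups overlapped, at 52788, 50672 and 47071 FPKM sedentary and 47391, 45589 and 47851 FPKM trained. mt-Nd3, mt-Cytb and mt-Co1 were picked for their values. Several of these genes overlap on the mitochondrial genome and the libraries kept no strand, so their reads cannot be fully separated. The median of the list moved to -0.23 with the GC content and length trend removed and to 0 after quantile normalization, which gives the most abundant genes of each library the same values.

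**Figure D4:**
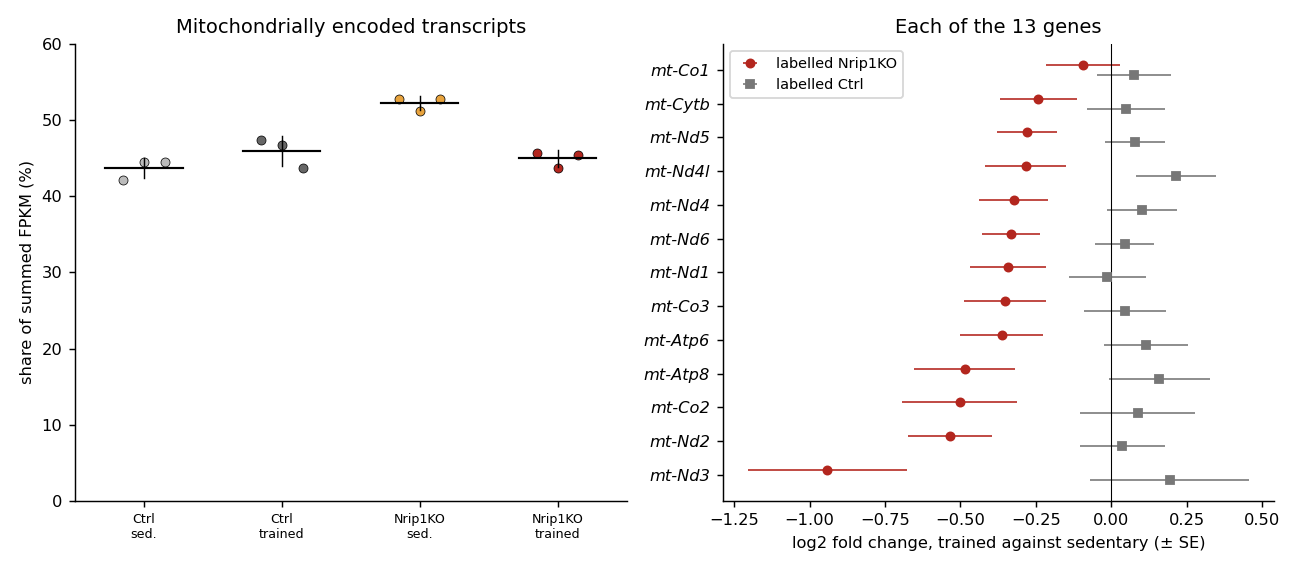
Left, share of summed FPKM (%) from the mitochondrial genome in each library, with the mean (horizontal line) and SD (vertical line) of each group of 3. Right, log2 fold change of trained against sedentary (± SE, limma) of its 13 protein-coding genes. The sedentary strNrip1-/- libraries are the highest at 52.8%, 51.2% and 52.8%, and all 13 strNrip1-/- fold changes are below 0.

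Nuclear genes of the respiratory chain had medians near 0. Of 36 nuclear complex I subunits, 0 were higher and 0 lower without overlap, and the median log2 fold change was 0.01. Of 40 subunits of complexes II to V, 2 were higher and 1 lower, with a median of -0.02. Both medians depended on single libraries, being 0.18 and 0.13 without sedentary replicate 2 and -0.13 and -0.14 without sedentary replicate 3. The complex I member of smallest p, Ndufb5, overlapped at 381, 446 and 326 FPKM sedentary and 433, 444 and 461 FPKM trained. Atp5g2, a subunit of the ATP synthase ring, was the 1 member of the other list that was lower, at 63.1, 100.1 and 63.2 FPKM sedentary and 60.8, 44.2 and 46.9 FPKM trained (log2 fold change -0.55 ± 0.18, limma adjusted p 0.282, and -0.33 on the log2 scale without sedentary replicate 2). Mitochondrial ribosomal proteins had a median of 0.01 over 78 genes, with 1 higher (Mrpl3, 0.38 ± 0.13) and 3 lower. Among 15 enzymes of the TCA cycle 0 were higher and 1 lower (median 0.02), and Ogdh, of the oxoglutarate dehydrogenase complex, gave 0.13 ± 0.06. Shares this near the 9.4% and 7.5% of all genes, or under them, are no result about these lists.

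Esrra, a receptor that drives oxidative genes, was higher in all 3 trained libraries, while its coactivator Ppargc1a was not. Esrra, the estrogen-related receptor alpha, was 96.6, 104 and 94.0 FPKM in the sedentary and 114, 127 and 120.2 FPKM in the trained libraries (log2 fold change 0.29 ± 0.07, limma adjusted p 0.2), and its WT value was -0.01 ± 0.07. With the GC content and length trend removed the log2 fold change of Esrra was 0.16. Ppara, the fatty acid receptor that drives oxidation genes, was picked for its values. It was 5.10, 3.23 and 3.72 FPKM sedentary and 5.11, 6.77 and 6.47 FPKM trained. The lowest trained value of Ppara, 5.11, was only just above its highest sedentary value, 5.10. Ppargc1a, the coactivator of these receptors, overlapped at 4.24, 4.10 and 4.58 FPKM sedentary and 4.4, 3.90 and 3.78 FPKM trained (log2 fold change -0.09 ± 0.12), while its WT value was 0.38 ± 0.12. The difference between these effects on Ppargc1a was -0.47 ± 0.18 (limma adjusted p 0.605). Over the 18 regulators, 4 were higher and 1 lower without overlap, beside 9.4% and 7.5% of all genes, with a median of 0.07. Ncor1, another corepressor of nuclear receptors, gave 0.01 ± 0.18. In the list of mitochondrial dynamics, 4 of 16 genes were higher and 1 lower (median 0.08). Its member of smallest p was the mitophagy receptor Bnip3, at 104, 92.4 and 113 FPKM sedentary and 116, 146 and 133 FPKM trained, and the fusion gene Mfn2, picked for its value, gave 0.22 ± 0.06.

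Fuel switching genes had wide spreads. Pdk4, the kinase that blocks glucose carbon from entering the TCA cycle, was 54.5, 68.4 and 94.0 FPKM in the sedentary and 136, 338 and 90.9 FPKM in the trained libraries (log2 fold change 1.19 ± 0.50, limma adjusted p 0.38), and without trained replicate 2 the log2 fold change was 0.65. Trained replicate 2 was far above the others, and trained replicate 3 lay within the sedentary range. Ucp3, a mitochondrial carrier that follows fatty acid supply, was 35.3, 48.0 and 48.9 FPKM sedentary and 84.9, 134 and 62.6 FPKM trained (2.04-fold higher), and its log2 fold change in WT was 1.21 ± 0.39. Among 17 glycolytic genes 3 were higher and 0 lower without overlap (median 0.02), beside 9.4% and 7.5% of all genes. Hexokinase Hk2 had the smallest p at 87.2, 80.2 and 89.8 FPKM sedentary and 102, 109 and 104 FPKM trained. Glycogen genes gave 1 higher, glycogen synthase Gys1, and 1 lower of 14 (median 0.01). Gys1 was 159, 162 and 159 FPKM sedentary and 184, 184 and 181 FPKM trained. Of 15 genes of insulin signaling and glucose uptake 2 were higher and 0 lower (median 0.16), with the kinase Akt2 at 98.1, 96.8 and 99.5 FPKM sedentary and 107, 113 and 109.8 FPKM trained. The glucose transporter Slc2a4 overlapped (log2 fold change 0.15 ± 0.07).

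Genes known to respond to glucocorticoids and to recent muscle activity were examined next. By the study's methods, wheels had been removed more than a day before any testing endpoint. Of 19 glucocorticoid-responsive genes 8 were higher and 0 lower without overlap, beside 9.4% and 7.5% of all genes, and their median was 0.35 on the log2 scale. In WT 8 were higher and 0 lower, beside 7.76% and 6.5% of all genes, with a median of 0.66. Cebpb, a transcription factor of the stress and fasting response, was 16.0, 14.3 and 12.5 FPKM in the sedentary and 47.5, 33.6 and 30.6 FPKM in the trained libraries (log2 fold change 1.33 ± 0.28, limma adjusted p 0.2, and 0.0413 without trained WT replicate 1), while the groups overlapped in WT (0.70 ± 0.28). Ddit4, an inhibitor of growth signaling through mTOR, was 8.92, 8.53 and 15.7 FPKM sedentary and 35.9, 28.3 and 23.1 FPKM trained, and was called when the pair of libraries richest in adrenal transcripts (sedentary replicate 3 and trained WT replicate 1) was left out (limma adjusted p 0.0159). Cebpd was 2.61, 2.64 and 2.93 FPKM sedentary and 4.5, 8.79 and 7.68 FPKM trained. Both Ddit4 and Cebpd, named after their values were seen, were also higher without overlap in WT. Immediate early genes gave 5 higher and 0 lower of 22 (median 0.26), against 3 higher and 2 lower with a median of -0.05 in WT. Fos, the classic member, was 1.22, 1.0 and 1.40 FPKM sedentary and 1.93, 6.44 and 3.61 FPKM trained (log2 fold change 1.27 ± 0.33, limma adjusted p 0.215), and its WT value was -0.43 ± 0.33. Circadian genes were higher for 5 and lower for 2 of 18 (median 0.09). Cry1, a clock repressor, was 4.79, 4.63 and 4.75 FPKM sedentary and 6.64, 5.20 and 10.7 FPKM trained (log2 fold change 0.56 ± 0.19, and 0.29 without trained replicate 3). The activator Arntl, picked for its values, oscillates in antiphase to several clock repressors. Its FPKM was 3.22, 3.82 and 3.25 sedentary and 2.55, 1.51 and 1.61 trained. Per the methods, tissue was taken in the early afternoon, and the hour for each animal is not given in the sources used here.

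Most vascular and neuromuscular genes overlapped between trained and sedentary libraries. Among 20 angiogenic factors and regulators 5 were higher and 1 lower without overlap (median 0.08), beside 9.4% and 7.5% of all genes. The oxygen-sensing prolyl hydroxylase Egln3 was 11.9, 11.1 and 12.8 FPKM in the sedentary and 15.7, 28 and 32.2 FPKM in the trained libraries (log2 fold change 1.0 ± 0.23). Vegfa, the main growth factor of capillaries, overlapped at 184, 161 and 177 FPKM sedentary and 173, 184 and 165 FPKM trained. Endothelial markers summed to 79.2 to 89.7 FPKM sedentary and 87.6 to 90.9 FPKM trained, and their member of smallest p, the sialomucin Emcn, was 7.15, 9.04 and 9.44 FPKM sedentary and 6.0, 5.23 and 6.48 FPKM trained. Emcn was the 1 of 6 endothelial markers that was lower without overlap, while 2 were higher, and the median was 0.11. Of 15 genes of the postsynaptic neuromuscular junction 0 were higher and 1 lower (median 0.03). Musk, the receptor kinase that organizes the junction, was 2.85, 3.79 and 2.78 FPKM sedentary and 3.16, 3.73 and 2.84 FPKM trained. Etv5, which had the smallest p of that list, gave 0.19 ± 0.09, and the ligand Wnt16 was 3.54, 2.28 and 2.66 FPKM sedentary and 2.99, 4.89 and 4.78 FPKM trained. Denervation-responsive genes gave 1 higher, Gadd45a (0.36 ± 0.12), and 1 lower of 9 tested (median 0.04).

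Genes of excitation, cytoskeleton and protein turnover had list medians between -0.06 and 0.17. Their counts without overlap stand beside 9.4% of all genes higher and 7.5% lower. Calcium handling genes gave 4 higher and 1 lower of 25 (median 0.11). Asph, the locus of junctin, was 109, 104 and 102 FPKM in the sedentary and 93.5, 83.1 and 87.2 FPKM in the trained libraries (log2 fold change -0.26 ± 0.06, limma adjusted p 0.2), and was higher without overlap in WT (0.14 ± 0.06). The difference between these effects was -0.40 ± 0.08 (limma adjusted p 0.437). In the dystrophin complex 4 of 15 genes were higher and 0 lower (median 0.06). Atrophy and autophagy genes gave 6 higher and 3 lower of 23 (median 0.17), among them the autophagy regulators Tfeb (0.33 ± 0.12) and Ulk1 (0.36 ± 0.13), picked for their values. The proteasome list gave 2 higher and 3 lower of 46 (median -0.05), its member of smallest p being the immunoproteasome subunit Psmb9 (-0.51 ± 0.17). For heat shock proteins the counts were 3 higher and 3 lower of 26 (median -0.06, Hspb8 -0.25 ± 0.08). Cytosolic ribosomal proteins had 0 higher and 0 lower of 84 (median -0.04, Rps27l -0.30 ± 0.13).

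Growth, secreted, matrix and immune genes completed the lists. Their counts without overlap stand beside 9.4% of all genes higher and 7.5% lower. Myostatin and insulin-like growth factor genes gave 1 higher and 1 lower of 18 (median -0.03), and Acvr2a, an activin receptor, was 3.54, 3.55 and 3.64 FPKM sedentary and 2.89, 2.86 and 2.83 FPKM trained. Myogenic and satellite cell genes gave 2 higher and 1 lower of 14 (median 0.05, Mef2a -0.17 ± 0.07). Myokines other than Fndc5 included Cxcl1, a chemokine, at 1.06, 1.37 and 1.61 FPKM sedentary and 0.091, 0.252 and 0.440 FPKM trained, a low gene picked for its values, and the list had 1 higher and 1 lower of 12 tested (median 0.02). Antioxidant genes had 3 higher and 3 lower of 25 (median -0.03), with the regulator Nfe2l2 at 15.9, 14.5 and 15.2 FPKM sedentary and 17.9, 17.9 and 17.9 FPKM trained. Of 33 collagen and matrix genes 2 were higher and 0 lower (median -0.03). In WT 9 were higher, beside 7.76% of all genes (median 0.21). Col1a1, the main fibrillar collagen, was 66.1, 84.0 and 80.6 FPKM sedentary and 118, 99.3 and 85.8 FPKM trained (log2 fold change 0.39 ± 0.13, against 1.04 ± 0.13 in WT). Interferon and antigen presentation genes gave 1 higher and 4 lower of 23 (median -0.11). B2m, the light chain of class I antigen presentation, was 149, 165 and 136 FPKM sedentary and 108, 109 and 107 FPKM trained (log2 fold change -0.47 ± 0.09, limma adjusted p 0.2).

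**Figure D5:**
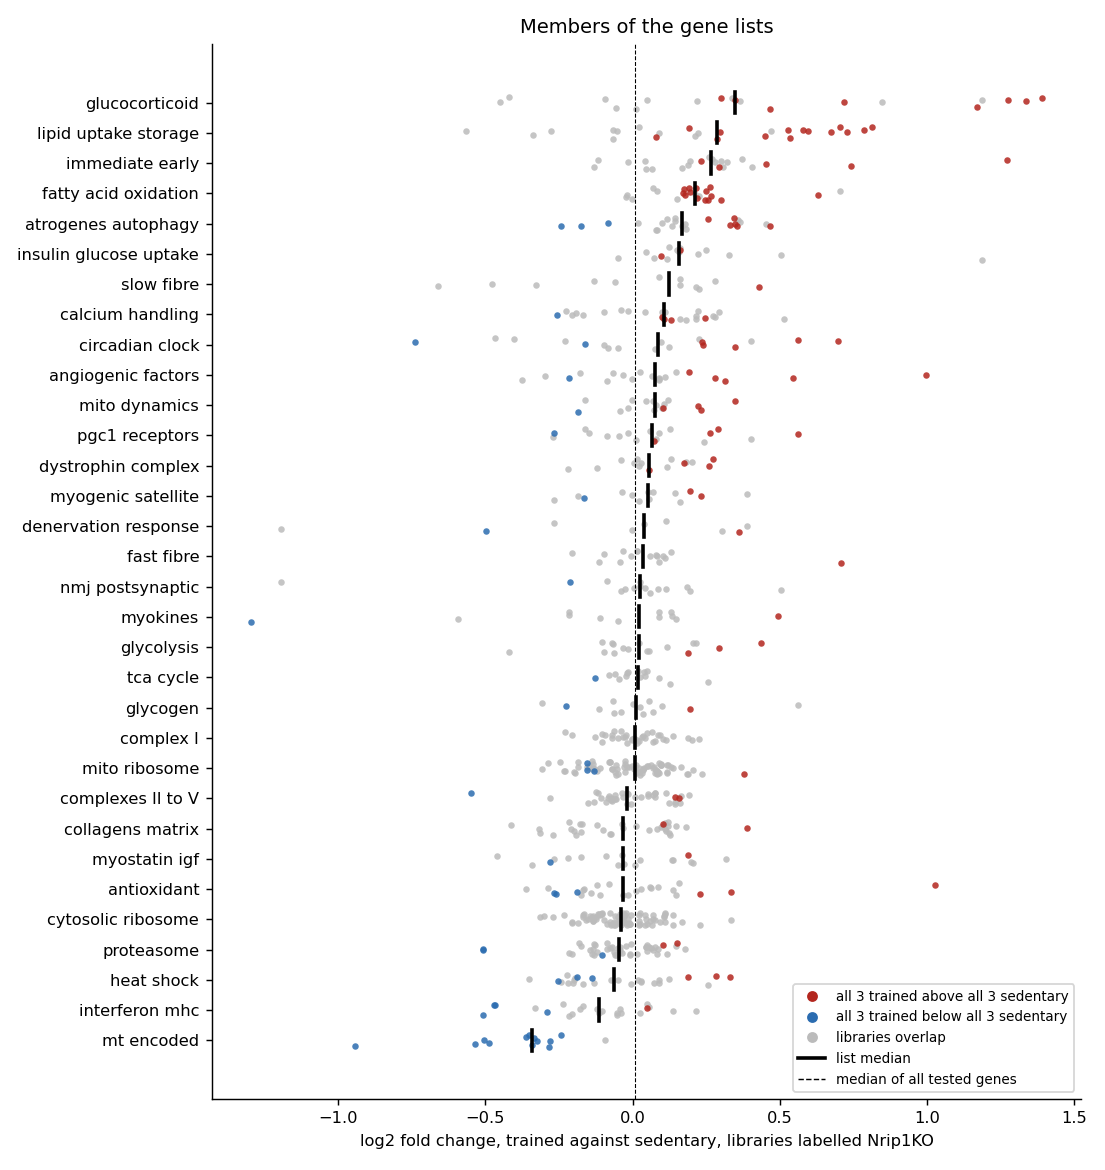
Log2 fold change of trained against sedentary libraries labelled Nrip1KO for the tested members of 32 gene lists, ordered by list median (black bar), with the median of all tested genes dashed. Red points were higher and blue points lower in all 3 trained libraries. The glucocorticoid and lipid lists have the highest medians (0.35 and 0.29) and the mitochondrial genome the lowest (-0.34), and none of the plotted genes passed the test.

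The difference between the training effects of the genotypes was tested gene by gene, and the 5 genes of smallest p were taken by rule. Amhr2, the receptor of anti-Müllerian hormone, was 0.670, 0.853 and 0.347 FPKM in the sedentary and 1.48, 1.36 and 2.74 FPKM in the trained libraries labelled Nrip1KO, and 2.93, 2.38 and 3.82 FPKM sedentary and 0.874, 0.247 and 1.19 FPKM trained in those labelled Ctrl. The effects went in opposite directions without overlap, but the gene is low and the difference of 2.59 ± 0.45 on the log2 scale did not pass (limma adjusted p 0.335). Tut4 had a difference of 1.66 ± 0.25 (limma adjusted p 0.335), since its WT values were 7.36, 5.72 and 9.07 FPKM sedentary and 4.51, 4.48 and 5.90 FPKM trained. Maf1, a repressor of RNA polymerase III, was 80.5, 80.4 and 76.7 FPKM sedentary and 93.9, 98.1 and 105 FPKM trained in strNrip1-/- libraries, and its WT effect was -0.28 ± 0.07 (difference 0.60 ± 0.10). Fkbp14, a chaperone of collagen folding, gave -0.46 ± 0.12 in strNrip1-/- and 0.50 ± 0.12 in WT libraries. Kera, keratocan, a matrix proteoglycan of tendon and cornea, gave -0.21 ± 0.12 and 0.74 ± 0.12. Tendon markers summed to 281 to 452 FPKM in sedentary and 271 to 306 FPKM in trained strNrip1-/- libraries, and to 237 to 302 and 291 to 358 FPKM in WT. The part of tendon in the Kera values was not tested.

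Marker sums of other cell types of muscle overlapped between the trained and sedentary libraries labelled Nrip1KO. Of the 7 macrophage markers, 1 was lower and 0 higher without overlap, beside 7.5% and 9.4% of all genes. Fibroblast markers summed to 271 to 342 FPKM sedentary and 248 to 272 FPKM trained, macrophage markers to 31.6 to 55.4 and 32.5 to 39.6 FPKM, Schwann cell markers to 35.8 to 53.9 and 43.2 to 71.1 FPKM, mural cell markers to 120.0 to 139 and 127 to 139 FPKM, and hemoglobin and other blood markers to 849.8 to 1834 and 808 to 1444 FPKM. All of these ranges overlapped, and no cell type marker was at 0 in any of the 6 libraries. The members of smallest p were Dcn (-0.22 ± 0.12), Csf1r (-0.29 ± 0.17), Sox10 (0.31 ± 0.19), Pdgfrb (0.16 ± 0.08) and Hbb-bt (-0.56 ± 0.35), and Acta1 (0.23 ± 0.13) for the muscle fiber. The liver sum given above did not overlap, Alb, picked for its values, being 195, 217 and 304 FPKM sedentary and 63.6, 125 and 65.2 FPKM trained. A principal component analysis of the 500 most variable genes in the 6 libraries placed the sedentary libraries at -4.97, -10.2 and -19.0 and the trained ones at 16.0, 10.9 and 7.34 on the first component, which carried 31.3% of the variance. Of the 50 genes that weighed most on the first component, 6 were in the liver list, and their part in it was not tested. The second component (27.8%) set both libraries numbered 3 apart from the rest, at -16.1 and -12.6.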

How the data were processed

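RNA from EDL of 12 samples, 3 in each of 4 groups, was sequenced as paired ends from libraries made with a kit that keeps no strand. Per the labels and the methods, the authors quantified reads with Salmon 1.10.2 on mm10, summed them to genes with tximport and compared groups with DESeq2 1.44.0. The deposited table holds FPKM per library as made by the authors, and the function and annotation release behind it are not given in the sources used here. It also holds the authors' log2 fold changes and adjusted p-values, which were not used. Columns tied to no sample numbered 0. Groups came from the labels.

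FPKM are not counts, so log2(FPKM + 0.5) was fitted with limma 3.58.1 in R 4.3.3, with 4 group means over all 12 libraries, a mean trend in the variance prior and Benjamini-Hochberg adjustment over the 12744 genes that averaged 0.5 FPKM or more. The code was tested on simulated data. Fold changes on this scale understate those of low genes. From the steps between low values of 1613 genes over 1500 nt, the FPKM of each library corresponded to a scale of 20.0 to 29.1 M fragments. That scale is the library's depth only if FPKM were divided by its own total, which is not known. On a transcript of 2 kb, 3 fragments came to 0.063 to 0.09 FPKM, which covers counting error only. Pairs of replicates correlated at 0.976 to 0.985 across genes and held no identical libraries. Coordinates and GC content came from GENCODE M21 on GRCm38, promoter windows from RefSeq on GRCm38.p6.

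Genes were named by a rule: the called genes of largest change (there were 0), the 5 of smallest p in the test of the genotype difference, the member of smallest p in each list, and 16 fixed genes. Some genes are not reported here. Genes outside the rule are said to be picked for their values. The comparison, the lists and the tests were chosen with earlier results of these data known, and the liver and adrenal lists after these values were seen. Alternatives covered the pseudocount, the filter, the scaling, the variance prior, GC content and length, the replicate number, the samples fitted and each library left out.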

Additional observations from a re-analysis of the deposited data

Results flagged for a closer look

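The share of summed FPKM from the mitochondrial genome was singled out because the training difference was not the same in the 2 genotypes. It was -7.31 percentage points in libraries labelled Nrip1KO (52.3% ± 0.918 sedentary, 45.0% ± 1.12 trained, SD, n = 3 each) and 2.22 points in those labelled Ctrl (43.7% ± 1.35 and 46.0% ± 1.92). The first difference minus the second was -9.53 points (exact two-sided permutation p = 0.015, with training labels exchanged within each genotype). Exchanging labels in this way assumes no training effect in either genotype, so the p is not a test of equal effects. The trained values of both genotypes overlapped, while the sedentary libraries labelled Nrip1KO were above all others. This comparison was added after the values were seen.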

How the results depend on the processing

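The count of genes called for training in libraries labelled Nrip1KO was 0 in the report, 5 with a mean of at least 5 FPKM, 3 with an equal sum over nuclear genes (B2m, mt-Nd2 and Rpl10-ps3) and 0 to 4 when each library was left out in turn (4 without sedentary replicate 3, 3 without trained WT replicate 1). Choices added after seeing the data gave 13 with library weights and 5 without the pair of libraries richest in adrenal transcripts (sedentary replicate 3 and trained WT replicate 1). In WT the count of 0 became 8 with a mean of at least 5 FPKM, 4 with quantile normalization, 2 with an equal sum over nuclear genes, 11 with library weights, 45 without that pair of libraries and 0 to 30 with a library left out (30 without trained replicate 1). The test of the genotype difference gave 0 to 1 with a library left out (Mup7, without trained WT replicate 3). With the replicate block the strNrip1-/- count stayed 0 and the WT count was 4, or 1 with the GC content and length trend removed as well. Replicate numbers were not used as pairs in the report. Deviations of same-numbered libraries correlated at 0.03, -0.03 and 0.11 in strNrip1-/- and -0.02, 0.20 and 0.05 in WT. A correlation near 0 over all tested genes does not show that the samples were unpaired. The second principal component set both libraries numbered 3 and labelled Nrip1KO apart from the rest.

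List medians were recomputed under 12 alternatives (the pseudocounts, scalings, GC content and length trend, replicate block and each library labelled Nrip1KO left out), where 368 values stayed within the spread between libraries and 16 did not. Quantile normalization gave 0 for the mitochondrial genome, 0.17 for fatty acid oxidation and 0.014 for the dystrophin complex. With the GC content and length trend removed the mitochondrial genome had -0.23 and the neuromuscular junction -0.018. With a library left out, the medians of 18 of 32 lists, most of them near 0, changed sign. The ranges were -0.19 to 0.48 (slow fiber), -0.13 to 0.18 (complex I), -0.14 to 0.13 (complexes II to V), 0.17 to 0.23 (fatty acid oxidation), 0.18 to 0.32 (immediate early), 0.0052 to 0.17 (myogenic), -0.031 to 0.085 (angiogenic), -0.00032 to 0.12 (clock), -0.071 to 0.051 (TCA cycle), -0.064 to 0.076 (fast fiber), -0.071 to 0.036 (myostatin) and -0.017 to 0.057 (neuromuscular junction). The difference in mitochondrial share ranged from -7.84 to -6.66 points.

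Of the named genes, over 22 alternatives, 1258 values kept direction and side of the threshold, 5 passed it (mt-Nd2 and B2m with an equal nuclear sum, Cebpb without trained WT replicate 1, Tut4 and Fndc5 with library weights), and 24 changed sign. Quantile normalization gave -0.16 for Mb, -0.036 for Ncor1 and -0.061 for Actn3, the equal nuclear sum -0.014 for Ncor1, and library weights 0.12 for Cidec. Without the pair richest in adrenal transcripts Cidec had 0.044, Musk -0.025, Vegfa 0.012 and Mb -0.076. Leaving out a library gave -1.02 to 0.81 for Myh7, -0.048 to 0.17 for Musk, -0.055 to 0.040 for Vegfa, -0.086 to 0.16 for Ncor1, -0.78 to 0.044 for Cidec and -0.076 to 0.23 for Mb, and among genes that kept their sign 0.65 to 1.60 for Pdk4, 0.29 to 0.78 for Cry1, -0.69 to -0.33 for Atp5g2, -0.89 to -0.29 for Hbb-bt, -0.39 to -0.12 for Csf1r and 0.16 to 0.42 for Sox10. In all, 26 of 59 named genes moved by over 1.5 times under at least 1 alternative. The causes were not tested. Across alternatives the median log2 fold change of all genes lay between -0.02 and 0.03. The depth behind each library limits low genes, whose values rest on few fragments.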

Other observations

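Genes of muscle structure outside the lists were among the 50 with the highest fold changes of those that did not overlap and reached 1 FPKM. They were picked for their values and none passed the test. Lmod2, leiomodin 2, which lengthens actin thin filaments, was 58.8, 55.1 and 56.3 FPKM in the sedentary and 96.0, 139.9 and 99.3 FPKM in the trained libraries (log2 fold change 0.95 ± 0.22, limma adjusted p 0.2). Fhl3, a LIM protein of muscle, was 85.5, 111 and 103 FPKM in the sedentary and 139.9, 209.8 and 145 FPKM in the trained libraries (log2 fold change 0.70 ± 0.17, limma adjusted p 0.2). In WT their log2 fold changes were 0.30 and 0.07, and their genotype differences were not called. Carriers and enzymes of mitochondria encoded in the nucleus also appeared. Slc25a34, a member of the mitochondrial carrier family, was 7.51, 6.01 and 8.52 FPKM in the sedentary and 12.1, 25.6 and 16.5 FPKM in the trained libraries (log2 fold change 1.19 ± 0.26, limma adjusted p 0.2), and the ketone body enzyme Bdh1 was 8.61, 16.5 and 14.0 FPKM in the sedentary and 19.7, 28.3 and 30.1 FPKM in the trained libraries (log2 fold change 1.0 ± 0.39, limma adjusted p 0.346). The Notch receptor of endothelium, Notch4, was 3.29, 2.89 and 2.65 FPKM in the sedentary and 5.85, 5.93 and 5.65 FPKM in the trained libraries (log2 fold change 0.88 ± 0.15, limma adjusted p 0.113). Of the 50, 17 were also higher without overlap in WT, beside 7.76% of all genes. Among them the kinase Sik1 was 1.77, 1.92 and 2.63 FPKM sedentary and 3.18, 4.36 and 3.61 FPKM trained in libraries labelled Nrip1KO.

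The largest lower differences included transcripts not typical of muscle fibers, and the genes named here were picked for their values. Members of the liver list made up 20 of the 50 largest lower differences without overlap that reached 1 FPKM. Another 1 was in the adrenal list. The liver list held 28 of the 12744 tested genes and was chosen after its values were seen. Mup9, a major urinary protein gene with near-identical paralogs that make its value uncertain, was 62.9, 73.4 and 231 FPKM in the sedentary and 1.95, 3.35 and 62.4 FPKM in the trained libraries (log2 fold change -3.61 ± 1.57, limma adjusted p 0.393), with replicate 3 of each group the highest. Mup15, a low gene of the same family, went the other way and had the highest log2 fold change of the 50 rises. Its FPKM was 0, 0 and 0.850 sedentary and 3.44, 8.70 and 1.25 trained (log2 fold change 2.52 ± 0.87, limma adjusted p 0.304). In WT Mup15 was lower without overlap (-2.69 ± 0.87). Hamp2, a hepcidin gene, was 27.9, 39.1 and 30.1 FPKM in the sedentary and 2.77, 17.4 and 2.55 FPKM in the trained libraries (log2 fold change -2.53 ± 0.64, limma adjusted p 0.212). Igkc, the constant region of the kappa immunoglobulin light chain, was 9.97, 10.1 and 3.61 FPKM in the sedentary and 3.30, 1.67 and 1.04 FPKM in the trained libraries (log2 fold change -1.72 ± 0.39, limma adjusted p 0.2). Of the 50 largest lower differences, 9 were also lower without overlap in WT, beside 6.5% of all genes.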
